A study of Mus musculus with 8 samples.

Results

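Germinal vesicle (GV) oocytes that lack BAF250a were compared with control GV oocytes. GV oocytes are full-grown oocytes arrested in meiotic prophase, with an intact nucleus. The comparison covers 4 of the 8 libraries of the series: 2 of control (genotype wildtype) and 2 of knockout (genotype BAF250aGKO) oocytes, all of strain C57BL/6. The other 4 libraries are of oocytes at metaphase of the second meiotic division (MII), of the same genotypes and strain. They were used to set the GV values beside those at a later stage. The MII libraries also entered the fit, its filter and the estimate of each gene's spread, and so every GV p-value. Each library was made from 5 to 10 oocytes, and neither the age of the mice nor whether the 2 libraries of a group came from separate animals is given, so a p-value here speaks only to the spread among these libraries. The knockout was driven by Gdf9-cre, a recombinase made in oocytes from early follicle growth on, so deletion can precede most of oocyte growth. All 54838 genes of the deposited table were members of the comparison, and 15572 of them passed the filter on low counts and were tested.

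BAF250a, encoded by Arid1a, is an ARID-domain subunit of the BAF (SWI/SNF) complex, which uses ATP to move or evict nucleosomes and so opens or closes promoters and enhancers. Its paralog ARID1B can take the same place in the complex. The growing oocyte transcribes and stores the mRNA that the egg and early embryo will use, and a full-grown GV oocyte makes little new RNA, so its mRNA pool largely records transcription and decay during growth.

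Levels are given as CPM, read counts set to a common depth (relative to the reads in tested genes) after scaling by the trimmed mean of M values. The values of control library 1 and 2 come first, then those of knockout library 1 and 2. Differences are log2 fold changes of knockout against control ± SE from edgeR's quasi-likelihood F-test (two-sided, n = 2 per group, fitted over all 8 libraries). The Benjamini-Hochberg adjustment ran over all 15572 genes, with 0.05 as the threshold. In a pool of oocytes, a lower share of oocytes with a transcript and less of it per oocyte cannot be told apart.

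The 4 GV libraries held 19587421 to 22686587 reads in genes, so that 3 reads, the floor used here for a gene not seen, were 0.124 to 0.17 CPM. Replicates correlated across genes at 0.96 in control and 0.962 in knockout (log2 CPM). Knockout library 1 had a scaling factor of 0.779 against 1.03 to 1.22 in the other 3 GV libraries, and its 10 most abundant genes took 11.6% of reads against 8.21% to 9.41%. The 12 oocyte markers were present in every GV library and summed to 39631 and 46004 CPM in control and 41111 and 39918 CPM in knockout (relative to reads in all genes, without scaling). The 24 granulosa and cumulus markers summed to 292 and 331 against 288 and 254 CPM, with Ptx3, Areg and Tnfaip6 at 0 in every GV library. Of the 19 of them tested, 13 had a negative and 5 a positive fold change (median -0.73), and 2 were lower at an unadjusted p below 0.05. The 14 blood and immune markers summed to 72.5 and 63.1 against 36.8 and 51.1 CPM, lower in both knockout libraries, with Ptprc, Tyrobp, Cd3e, S100a8 and Lyz2 at 0 in all 4. Of the 5 tested, 2 had a positive and 3 a negative fold change (-6.02 to 3.88). The 13 theca and stroma markers summed to 7.22 and 3.06 against 2.29 and 2.46 CPM, and the 6 endothelial markers to 14.3 and 19.7 against 13 and 22 CPM. None of the 44 tested markers passed, where 0.989% of all tested genes did.

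Arid1a checks the labels. The gene lies on the minus strand of chromosome 4 (133679008 to 133756769 in mm10, ENSMUSG00000007880). It was at 379.6 and 458 CPM in control and at 4.87 and 12.9 CPM in knockout GV oocytes. Both knockout libraries lay far below both controls, and knockout library 2 kept the larger residue. Arid1a fell 46.9-fold (-5.55 ± 0.50, adjusted p = 0.000526), to 2.12% of control. Arid1b, the paralog, was at 123 and 142 against 166 and 154 CPM (0.27 ± 0.25, adjusted p = 0.85). Among the 26 tested subunits of the BAF, PBAF and ncBAF forms of the complex, Arid1a alone passed, and their median was -0.03.

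Of the 15572 tested genes 154 passed, 0.989% of all. Higher in knockout were 93 genes (0.597%) and lower were 61 (0.392%), of which 65 and 58 were protein-coding. An unadjusted p below 0.05 was found for 1687 genes. The changes that passed were large, and small ones would mostly be missed by this test. Counts were simulated with the depths, mean levels and spread of these libraries. In them, genes changed by 1, 2 and 4 in log2 size passed in 3.64%, 61.4% and 97.3% of cases. The median fold was 9.96 among the higher genes and 9.51 among the lower genes, 40 and 20 genes changed over 16-fold, and 24 and 5 changed under 4-fold. All 154 had groups that did not overlap, which 46.4% of all tested genes also had. The smallest log2 change that passed was 1.38 among the higher and 1.64 in size among the lower genes.

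**Figure D1:**
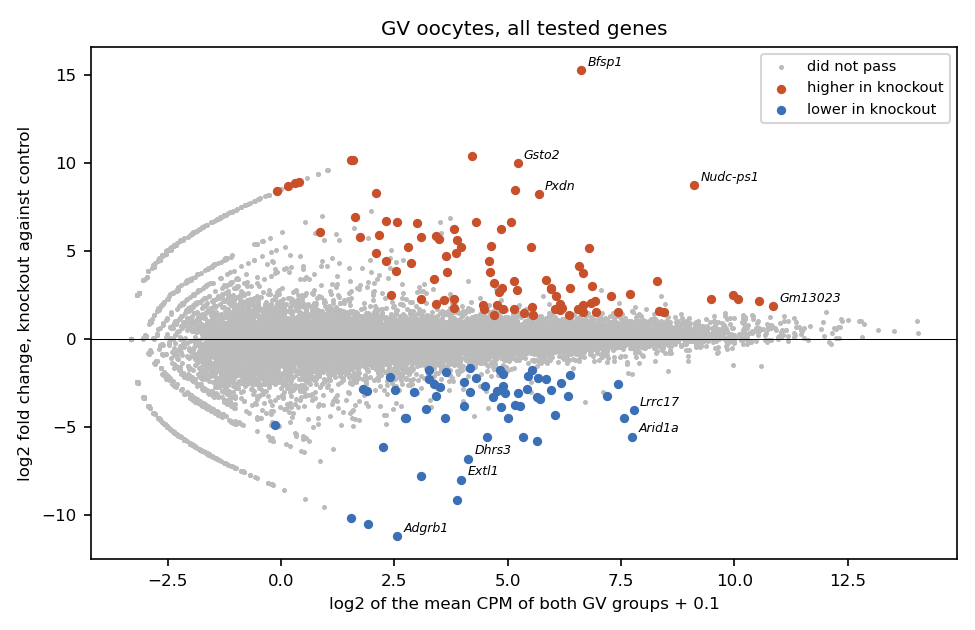
Log2 fold change of knockout against control GV oocytes (y axis) against log2 of the mean CPM of both groups plus 0.1 (x axis) for 15572 tested genes, with 93 genes higher in knockout in red, 61 lower in blue and the rest in grey. The calls lie at large fold changes on both sides of 0 over the whole range of levels, while the bulk of genes is centred on 0.

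How many genes pass depends on the design, and most calls in each direction passed in none of the fits that left out 1 library. With the 4 GV libraries alone 345 were higher and 357 lower, and 153 of the 154 calls were among them. Leaving out 1 library at a time left 13 higher and 13 lower without control library 1, 15 and 14 without control library 2, 23 and 21 without knockout library 1, and 43 and 16 without knockout library 2. A core of 22 genes passed in all 4 of these fits. The 11 higher ones were Pxdn, Cdc34b, Gsto2, Bfsp1, Prr15l and the pseudogenes or unnamed genes Gm10036, Rps3a3, Gm8730, Pcna-ps2, Gm12463 and Nudc-ps1. Among the 11 lower ones were Arid1a, Arl8a, Cachd1, Gm13103, Adgrb1, Lrrc17, Dhrs3, D5Ertd577e, C87414 and the lincRNA Gm19757.

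The promoters of 6 protein-coding genes of this core are shown, 3 from each direction, since their calls held with any GV library left out. Each is the RefSeq sequence of GRCm38.p6 from 250 bases before to 50 bases after the most upstream start of the gene, written 5′ to 3′ on the strand of the gene. Capitals mark matches, on either strand, to 6 motifs: the basal promoter element TATAAA, the box CCAAT, the Sp1-type element GGGCGG, the homeodomain site TAATTG, the E-box CACCTG and the AP-1 site TGANTCA. Matches to GGGCGG may overlap one another. The first 3 genes were higher in knockout: Gsto2 (chr19:47865295-47865594, plus strand), Pxdn (chr12:29937786-29938085, plus strand) and Bfsp1 (chr2:143863124-143863423, minus strand). The last 3 were lower: Dhrs3 (chr4:144892577-144892876, plus strand), Cachd1 (chr4:100776429-100776728, plus strand) and Lrrc17 (chr5:21543277-21543576, plus strand).
Gsto2: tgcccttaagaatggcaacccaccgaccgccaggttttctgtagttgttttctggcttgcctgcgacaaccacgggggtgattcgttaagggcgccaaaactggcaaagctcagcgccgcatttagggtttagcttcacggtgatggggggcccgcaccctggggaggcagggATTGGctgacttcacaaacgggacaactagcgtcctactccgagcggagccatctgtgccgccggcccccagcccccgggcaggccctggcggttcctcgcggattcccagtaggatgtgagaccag
Pxdn: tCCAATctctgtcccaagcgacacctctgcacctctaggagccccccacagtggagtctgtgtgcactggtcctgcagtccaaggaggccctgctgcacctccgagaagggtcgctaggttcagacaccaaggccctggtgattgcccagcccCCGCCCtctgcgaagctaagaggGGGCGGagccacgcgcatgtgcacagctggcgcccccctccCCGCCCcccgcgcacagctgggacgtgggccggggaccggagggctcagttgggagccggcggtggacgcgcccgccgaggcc
Bfsp1: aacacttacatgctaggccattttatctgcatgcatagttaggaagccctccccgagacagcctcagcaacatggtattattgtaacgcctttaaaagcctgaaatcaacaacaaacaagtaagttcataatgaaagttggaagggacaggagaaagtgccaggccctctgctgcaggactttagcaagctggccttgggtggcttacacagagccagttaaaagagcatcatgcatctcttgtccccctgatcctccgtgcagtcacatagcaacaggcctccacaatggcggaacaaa
Dhrs3: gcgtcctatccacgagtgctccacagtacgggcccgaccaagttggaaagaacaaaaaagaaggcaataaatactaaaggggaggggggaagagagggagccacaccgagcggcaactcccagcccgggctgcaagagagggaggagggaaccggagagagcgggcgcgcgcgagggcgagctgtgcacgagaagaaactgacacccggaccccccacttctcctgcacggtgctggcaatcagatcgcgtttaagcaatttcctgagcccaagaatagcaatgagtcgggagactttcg
Cachd1: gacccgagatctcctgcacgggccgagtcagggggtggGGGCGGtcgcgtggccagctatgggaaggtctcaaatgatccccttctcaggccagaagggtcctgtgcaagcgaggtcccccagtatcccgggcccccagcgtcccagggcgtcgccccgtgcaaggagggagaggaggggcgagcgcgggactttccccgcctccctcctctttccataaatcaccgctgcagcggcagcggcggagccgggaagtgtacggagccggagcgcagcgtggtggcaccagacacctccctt
Lrrc17: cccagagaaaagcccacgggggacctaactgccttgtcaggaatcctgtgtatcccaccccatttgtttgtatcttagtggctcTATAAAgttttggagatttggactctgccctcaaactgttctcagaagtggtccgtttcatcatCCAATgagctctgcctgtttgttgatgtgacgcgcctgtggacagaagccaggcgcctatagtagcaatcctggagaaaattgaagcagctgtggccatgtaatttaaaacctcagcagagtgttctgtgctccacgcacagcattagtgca

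The 6 differ widely in base composition. The Pxdn promoter has a GC content of 70% and 21 CpG dinucleotides, and that of Cachd1 68.3% and 25. The Bfsp1 promoter has 47.7% and 4, and that of Lrrc17 48.7% and 6. Gsto2 and Dhrs3 lie between them, with 61.7% and 58.7%. The Pxdn window holds 3 matches to GGGCGG and 1 to CCAAT, that of Lrrc17 holds TATAAA and CCAAT, and those of Bfsp1 and Dhrs3 hold none of the 6 motifs. No match says only that these letters are not in the window.

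A promoter was found for 55 of the 65 protein-coding genes that were higher and for 10405 of the 12980 distinct symbols among the protein-coding genes tested (80.2%). TATAAA was in 5.45% of the higher genes' promoters and 7.43% of all, CCAAT in 41.8% and 39.1%, and GGGCGG in 60% and 62.1%. TAATTG was in 3.64% and 5.17%, CACCTG in 23.6% and 18.7%, and TGANTCA in 3.64% and 4.82%. A ratio of observed to expected CpG below 0.4 was found in 9.09% of the higher genes' promoters and 17.5% of all. None of these shares was tested. For lower genes only 41 of 58 (70.7%) had a promoter in the table, under 80%, so the check is void for them.

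The protein-coding genes with the largest rises encode proteins of unrelated functions, several of them best known from other tissues. Gsto2, an omega-class glutathione transferase that reduces dehydroascorbate, was at 0.0928 and 0.0419 CPM in control and at 95.8 and 52.5 CPM in knockout. It rested on 2 reads and 1 read in control against 1692 and 1272 in knockout, a ratio of 1072 (exact 95% counting interval 366 to 5199.8), and it passed (adjusted p = 0.000136). The counting intervals here and below cover counting error only. Pxdn, peroxidasin, a secreted peroxidase that cross-links collagen IV, was at 0.186 and 0.461 against 124 and 80 CPM, 307-fold higher (8.26 ± 0.54, adjusted p = 0.000136). For both genes the knockout libraries stood far above the control libraries.

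Bfsp1, which encodes filensin, an intermediate filament protein of lens fibre cells, was not read in either control library (0 reads) and was at 311 and 81.7 CPM in knockout, at least 1483-fold higher (adjusted p = 0.00111). Knockout library 1 was the higher one. Of the 10 tested lens, intermediate filament and keratin genes it was the only call, beside 0.989% called over all tested genes. Krt8, a keratin, was at 2.04 and 3.31 against 0.0566 and 0.0413 CPM and did not pass (adjusted p = 0.227). Prr15l, a small proline-rich protein gene, had 1 read in control and was at 32.5 and 41.8 CPM in knockout, a count ratio of 1718 (95% interval 308 to 67908, adjusted p = 0.00117).

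Several genes with large rises were at lower levels in knockout. Spesp1, an equatorial segment protein of sperm, and Zfp990, a zinc finger gene, had 0 reads in control. Spesp1 was at 4.3 and 7.31 CPM in knockout, at least 43.8-fold higher (adjusted p = 0.031), and Zfp990 at 4.93 and 6.36 CPM, at least 42.6-fold higher (adjusted p = 0.014). Spesp1 was the only call among 26 tested genes of the male germline, where 0.989% of all tested genes passed. Gpat3, an acyltransferase of triglyceride synthesis, was at 0.371 and 0.335 against 18.9 and 36.7 CPM (6.28 ± 0.83, adjusted p = 0.0067). Rassf4, a Ras-association domain protein, was at 0.0464 and 0.168 against 12.9 and 9.79 CPM (6.64 ± 1.05, adjusted p = 0.0154). Ttc5, a p300 cofactor of the p53 response, was at 0.186 and 0.335 against 7.87 and 8.18 CPM (4.91 ± 0.93, adjusted p = 0.0388). Gm4737 was at 0.186 and 0.503 against 26.1 and 15.3 CPM (5.88 ± 0.87, adjusted p = 0.0121). In all of these the knockout libraries were clear of the controls, yet only the call of Gpat3 survived any of the 4 fits that left out a library, and it survived 1.

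**Figure D2:**
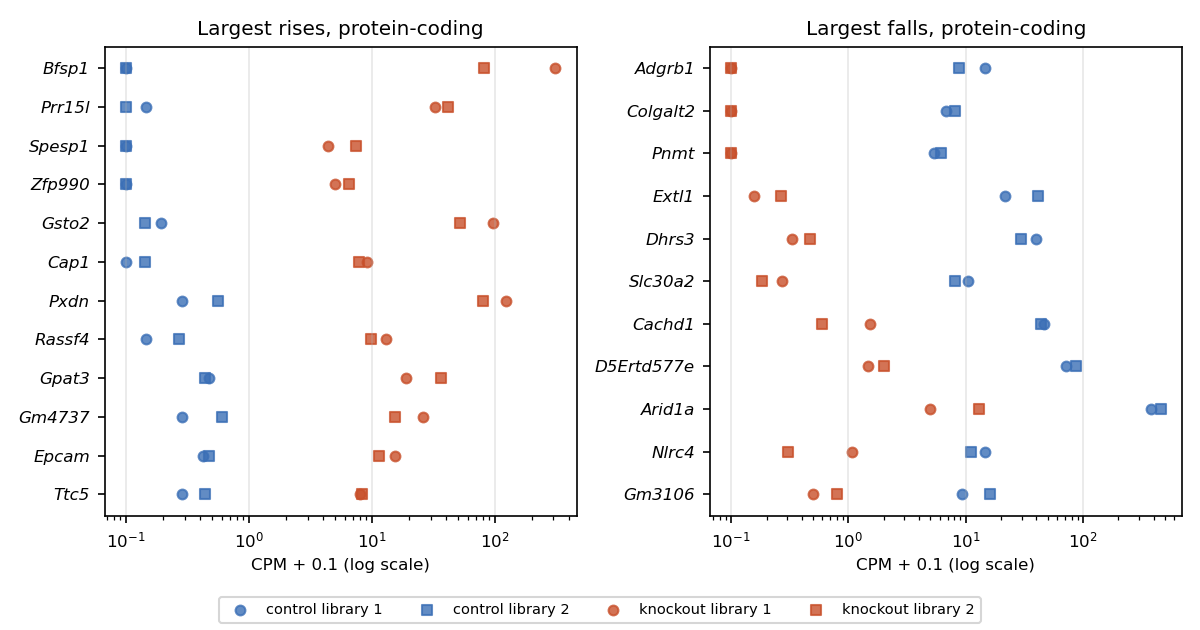
CPM plus 0.1 (log axis) in each of the 4 GV libraries for the 12 protein-coding genes with the largest rises (left) and 11 of the 12 with the largest falls (right), control in blue and knockout in red, library 1 as circles and library 2 as squares. Control and knockout symbols do not meet for any gene. Both control symbols of Bfsp1, Spesp1 and Zfp990 and both knockout symbols of Adgrb1, Colgalt2 and Pnmt sit at the left edge, which stands for 0 reads. Prr15l in control library 2 and Cap1 in control library 1 also had 0 reads.

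The falls included genes with no reads left in knockout. Adgrb1, an adhesion G protein-coupled receptor that recognises dying cells, was at 14.4 and 8.72 CPM in control and had 0 reads in knockout, at least 78.6-fold lower (adjusted p = 0.00254). Colgalt2, a collagen galactosyltransferase, was at 6.68 and 7.92 CPM in control and Pnmt, which makes adrenaline, at 5.24 and 6.03 CPM. Both had 0 reads in knockout, at least 49.7-fold and 38.4-fold lower (adjusted p = 0.0432 and 0.0357). Nlrc4, an inflammasome receptor, was at 14.6 and 10.9 against 0.963 and 0.207 CPM (-4.49 ± 0.68, adjusted p = 0.0125). The sum of the blood and immune markers was also lower in both knockout libraries (above), though the 5 tested ones went both ways. Whether blood and immune cells had a part in the Nlrc4 value was not tested.

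Dhrs3, a reductase of retinaldehyde, was at 39.6 and 29.7 CPM in control and 0.227 and 0.372 CPM in knockout, 112-fold lower (-6.81 ± 0.63, adjusted p = 0.0011). It was the only call among 23 tested retinoid and steroid dehydrogenases, where 0.989% of all tested genes passed. The members next by p were not called: Crabp2, a carrier of retinoic acid, was at 158 and 69.2 against 74 and 57.6 CPM (adjusted p = 0.511), and Rdh10, a retinol dehydrogenase, at 90.6 and 96.6 against 137 and 143 CPM (adjusted p = 0.451). Cachd1, which has a cache domain related to calcium channel subunits, was at 46.5 and 44 against 1.42 and 0.496 CPM (-5.59 ± 0.55, adjusted p = 0.00107). Cachd1 was 48.2-fold lower.

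The genes that changed among abundant transcripts give a second view. Lrrc17, a secreted leucine-rich repeat protein, was at 503 and 324 against 29.1 and 20.7 CPM, 16.6-fold lower (-4.06 ± 0.34, adjusted p = 0.000367). Rab3b, a GTPase of secretory vesicles, was at 342 and 187 against 24.8 and 30.9 CPM (-3.25 ± 0.45, adjusted p = 0.00834). B4galt4, a galactosyltransferase, was at 358 and 233 against 74.7 and 25.8 CPM (-2.56 ± 0.47, adjusted p = 0.036). The spread was wide for Rab3b in control and B4galt4 in knockout, and each held its call in 1 of the 4 fits without a library.

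Among abundant transcripts that rose, Rfpl4, a RING finger gene of the oocyte and early embryo, was at 227 and 368 CPM in control and 2314 and 1094 CPM in knockout, 5.72-fold higher (2.52 ± 0.41, adjusted p = 0.0174). Ggct, a gamma-glutamylcyclotransferase of glutathione breakdown, was at 213 and 269 against 1579 and 797 CPM (2.30 ± 0.35, adjusted p = 0.0133). C87977 was at 464 and 633 against 2684 and 2166 CPM (2.14 ± 0.30, adjusted p = 0.00882). The transcribed pseudogene Gm1821 was at 493 and 233 against 2419 and 1163 CPM (2.30 ± 0.44, adjusted p = 0.0417). For all 4 knockout library 1 was the highest. Cdc34b, a ubiquitin-conjugating enzyme gene chosen here for holding its call in all 4 fits, was at 62.5 and 52 against 686 and 451 CPM (3.31 ± 0.33, adjusted p = 0.0011). Arl8a, a lysosomal GTPase chosen in the same way, was at 80.1 and 63.6 against 5.72 and 4.54 CPM (-3.81 ± 0.37, adjusted p = 0.00103).

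Some of the calls, a minority in each direction, were closer to presence and absence than to a shift in level. Among the 93 higher genes, 25 were below 1 CPM in both control libraries and at 5 CPM or more in both knockout libraries, and 11 of these were protein-coding (Ttc5, Tmco6, Pxdn, Gsto2, Bfsp1, Cap1, Gpat3, Rassf4, Epcam, Prr15l and Gm4737). Over all tested genes 38 had this pattern. The reverse pattern was found in 11 of the 61 lower genes (Slc30a2, Extl1, Colgalt2, Adgrb1, Pnmt, Nlrc4, Usp13, Dhrs3, Gm12633, Gm3106 and Gm19757) and in 18 of all tested genes.

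Of the gene lists that describe the oocyte, 5 held no call. This was so for 18 oocyte transcription factors, 15 zona pellucida genes and oocyte-secreted factors, 32 maternal-effect and subcortical complex genes, 30 genes of meiotic recombination and 54 of maternal mRNA storage and decay. With 0.989% of all tested genes called, and small changes mostly missed, lists of these sizes can hold none. Their medians lay above 0, at 0.35, 0.48, 0.57, 0.30 and 0.40, beside 0.00 over all tested genes. Of the 32 maternal-effect genes 28 had a positive and 4 a negative fold change. Scaling by library totals alone put the median over all genes at -0.27 and these 5 medians at 0.06, 0.23, 0.27, 0.01 and 0.11. Outside these lists, Rfpl4 (above) passed, as did Gm13023 and Gm13103 of the PRAME-like and oogenesin list (below). Genes of recombination outside the lists, singled out after their values were seen, went both ways. Rad51b was at 6.96 and 5.95 against 63.7 and 65 CPM (3.32 ± 0.39, adjusted p = 0.00298). Rad51d was at 54.2 and 47.6 against 6.4 and 9.75 CPM (-2.65 ± 0.42, adjusted p = 0.0154). Top3a, a topoisomerase that resolves recombination intermediates, was at 37.2 and 54.8 against 3.57 and 5.62 CPM (-3.32 ± 0.65, adjusted p = 0.0448).

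Other chromatin regulators also held no call, which lists of this size can give where 0.989% of all genes pass: none of 26 other remodellers passed (median 0.44), none of 32 Polycomb genes (0.37), none of 48 histone methylation and acetylation genes (0.32) and none of 16 genes of DNA methylation. Arid2, which marks the PBAF form of the complex, was at 70.4 and 73.2 against 105 and 126 CPM (0.68 ± 0.25, adjusted p = 0.306), and Dpf3, a BAF reader subunit, at 69.5 and 58.3 against 54.4 and 37.1 CPM (-0.48 ± 0.29, adjusted p = 0.647).

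Lists of meiotic maturation had 1 call each, all higher, where 0.989% of all tested genes passed, so the number of calls does not set these lists apart. Plk4, the kinase that starts centriole duplication, was at 23.7 and 20.2 against 59.5 and 60.3 CPM (1.45 ± 0.27, adjusted p = 0.0363), 1 of 51 kinases and cell cycle regulators. Mapk3, the kinase ERK1 of the meiotic MAPK pathway, was at 1599 and 1366 against 485 and 566 CPM and did not pass (-1.50 ± 0.35, adjusted p = 0.0984). Ect2, which activates RhoA at cytokinesis, was at 4.69 and 4.99 against 23.7 and 22.6 CPM (2.26 ± 0.34, adjusted p = 0.0125), 1 of 50 spindle, kinetochore and cytokinesis genes. Replicates of Plk4 and Ect2 in each group lay close together. Cap1, an actin-monomer recycling protein, had 0 reads and 1 read in control and was at 8.95 and 7.72 CPM in knockout (count ratio 374, 95% interval 66.7 to 14824, adjusted p = 0.00924), 1 of 38 actin and cortex genes. Pfn1, profilin, was at 142 and 63 against 728 and 391 CPM (2.45 ± 0.52, adjusted p = 0.0665).

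Hormad1, a protein of the unsynapsed meiotic chromosome axis, had 0 reads in control and was at 1.42 and 3.1 CPM in knockout, at least 17-fold higher (adjusted p = 0.0284). It was the only call of 36 cohesin and axis genes, where 0.989% of all tested genes passed. Esco2, which acetylates cohesin, was at 26.3 and 34.7 against 57 and 90.5 CPM (1.28 ± 0.32, adjusted p = 0.116). Of 32 genes of the p53 response, DNA damage and apoptosis, Ccng2, a cyclin known to slow proliferation, passed at 1.9 and 3.85 against 10.8 and 17 CPM (2.27 ± 0.44, adjusted p = 0.0429). Trp53bp1, a repair protein, was at 103 and 74.8 against 265 and 167 CPM (1.28 ± 0.32, adjusted p = 0.112). The calls of Plk4, Ect2, Cap1, Hormad1 and Ccng2 held in none of the 4 fits that left out a library.

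Genes of the cell surface and matrix went both ways. Of 32 adhesion receptors and gap junction genes Epcam rose and Adgrb1, Itgb3 and Cachd1 fell, where 0.989% of all tested genes passed. The lists here were chosen with earlier results of these data known, and their counts of calls were not tested. Epcam, an adhesion molecule of epithelia and germ cells, was at 0.325 and 0.377 against 15.3 and 11.3 CPM (5.22 ± 0.56, adjusted p = 0.00151). Itgb3, the integrin subunit beta 3, was at 34.9 and 42.5 against 6.91 and 5.37 CPM (-2.66 ± 0.38, adjusted p = 0.00967). Of 33 matrix genes and enzymes that modify the matrix, Pxdn rose and Colgalt2 fell. Bmp1, a procollagen proteinase, was at 1.39 and 0.461 CPM in control and had 0 reads in knockout, and it did not pass (adjusted p = 0.0984). Extl1, a glycosyltransferase of heparan sulfate synthesis, was at 21.4 and 41 against 0.0566 and 0.165 CPM (-8.00 ± 0.91, adjusted p = 0.00245), the only call of 30 glycosyltransferases. Slc30a2, a zinc transporter of vesicles, was at 10.3 and 8 against 0.17 and 0.0826 CPM (-6.16 ± 1.04, adjusted p = 0.031), the only call of 25 metal transport genes.

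Gsto2 and Pxdn were the calls among 43 glutathione and antioxidant genes, whose median was 0.00, beside 0.989% called over all tested genes. Pxdn is also counted among the matrix genes above. Gstm2, a mu-class glutathione transferase, was at 8.31 and 4.02 against 0.34 and 0.165 CPM and did not pass (-4.60 ± 1.06, adjusted p = 0.101). Gpx3, a secreted glutathione peroxidase, was at 97.9 and 161 against 53.8 and 61.4 CPM (-1.17 ± 0.34, adjusted p = 0.181). No call was found among 70 nuclear-encoded oxidative phosphorylation genes, 13 mitochondrially encoded mRNAs, 33 translation factors, 32 chaperones, 25 cholesterol synthesis genes and 29 imprinted genes. At a share of 0.989% over all tested genes, and with small changes mostly missed, lists of these sizes can hold none.

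Calls were unevenly placed in the genome. On chromosome 4, which carries Arid1a, 9 genes were higher and 12 lower of 957 tested, 2.19%, against 0.91% on all other chromosomes together. Chromosome 14 followed with 10 higher and 0 lower of 558 (1.79%), then chromosome 11 with 8 and 11 of 1146 (1.66%), chromosome 3 with 8 and 4 of 731 (1.64%) and chromosome 5 with 9 and 7 of 1048 (1.53%). Only 1 of 745 genes passed on chromosome 10. Of the 10 calls on chromosome 14, 5 were pseudogenes (Gm1821, Vmn2r-ps110, Rps2-ps6, Gm4350 and Rps3a2). No test was made of these shares, since neighbouring genes are not independent.

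On chromosome 4 the share called was highest near the deleted gene. Within 5 Mb of the Arid1a start, and without Arid1a, 5 of 153 tested genes passed (3.27%), and the median of the 153 was -0.24. Between 5 and 20 Mb 7 of 315 passed (2.22%, median 0.01) and beyond 20 Mb 8 of 488 (1.64%, median 0.11). Trnp1, Arid1a, Slc30a2, Extl1 and Aunip, all lower, lie between 133491100 and 134523927, where 28 genes were tested. Trnp1, a nuclear protein that drives proliferation of neural progenitors, was at 82.5 and 52.1 against 6.68 and 9.21 CPM (-3.08 ± 0.48, adjusted p = 0.0141). Aunip, an interactor of Aurora A, was at 137 and 131 against 27.8 and 36.3 CPM (-2.06 ± 0.29, adjusted p = 0.00859). The single gene that rose within 5 Mb was Khdrbs1, which encodes the RNA-binding protein SAM68, at 7.84 and 10.2 against 30.3 and 38.7 CPM (1.93 ± 0.31, adjusted p = 0.0163). None of Trnp1, Slc30a2, Aunip and Khdrbs1 held its call in a fit without 1 library, and Extl1 held it in 2 of the 4.

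Of the 6 runs of 4 or more calls with gaps of at most 3 Mb, 3 lie on chromosomes 11 and 8. On chromosome 11 5 of 66 tested genes passed between 82876434 and 88211507 and 5 of 80 between 93098028 and 98388181, a stretch that holds Cdc34b, Prr15l and Pnmt. On chromosome 8 5 of 94 passed between 69132669 and 72443870. The share called was 5.32% to 7.58% in these 3 runs and 17.9% in the run at Arid1a, which counts Arid1a itself. It was 42.9% and 40% in the runs described next, and 0.989% over all tested genes. Each run starts and ends at a call, so its share is high by construction.

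The remaining runs, one on chromosome 4 and one on chromosome 5, lie in regions rich in multicopy gene families. On chromosome 4 between 143789352 and 145539188 6 of 14 tested genes passed, 4 higher and 2 lower. Gm13023, of the PRAME-like family, whose members are expressed in oocytes and early embryos, was at 685 and 909 against 3456 and 2318 CPM (1.86 ± 0.35, adjusted p = 0.0374). Its neighbour Gm13103, of the same family, was at 382 and 348 CPM in control and at 16.3 ± 3.96 CPM (SD, n = 2) in knockout (-4.49 ± 0.32, adjusted p = 0.000136). These near neighbours thus moved in opposite directions, 3.62-fold up and 22.4-fold down. They were the 2 calls of the 14 tested genes of the PRAME-like and oogenesin list, where 0.989% of all tested genes passed. That list does not hold C87977 or the chromosome 5 genes C87414, D5Ertd577e, Gm3106, AA792892 and Gm3259. Gm13088 was at 1.76 and 2.81 against 12.7 and 17.4 CPM (adjusted p = 0.0635) and Gm13089 at 38.8 and 49.2 against 1.81 and 4.01 CPM (adjusted p = 0.0621). The other calls of this run were C87977, Gm13100, Zfp990 and Dhrs3.

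On chromosome 5 between 93093437 and 95975623 8 of 20 tested genes passed. C87414 was at 132 and 119.9 against 6.4 and 6.11 CPM (-4.33 ± 0.31, adjusted p = 0.000136). D5Ertd577e was at 71.4 and 86.4 against 1.36 and 1.9 CPM (-5.58 ± 0.42, adjusted p = 0.000182). Gm3106, AA792892 and Gm3259 fell with them (-4.49, -3.80 and -2.76), as did the septin gene Sept11 (-1.87). Ccng2 and the processed pseudogene Gm7993 rose, the latter from 0.139 and 0.251 to 94.2 and 49 CPM (8.47 ± 0.90, adjusted p = 0.00147). The sources used here do not say how reads of near-identical copies were assigned, and values of single members of these families are uncertain. Sept11, AA792892, Gm3259, C87414 and Gm13100 were named here after their values were seen, from where they lie or from how their calls held.

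**Figure D3:**
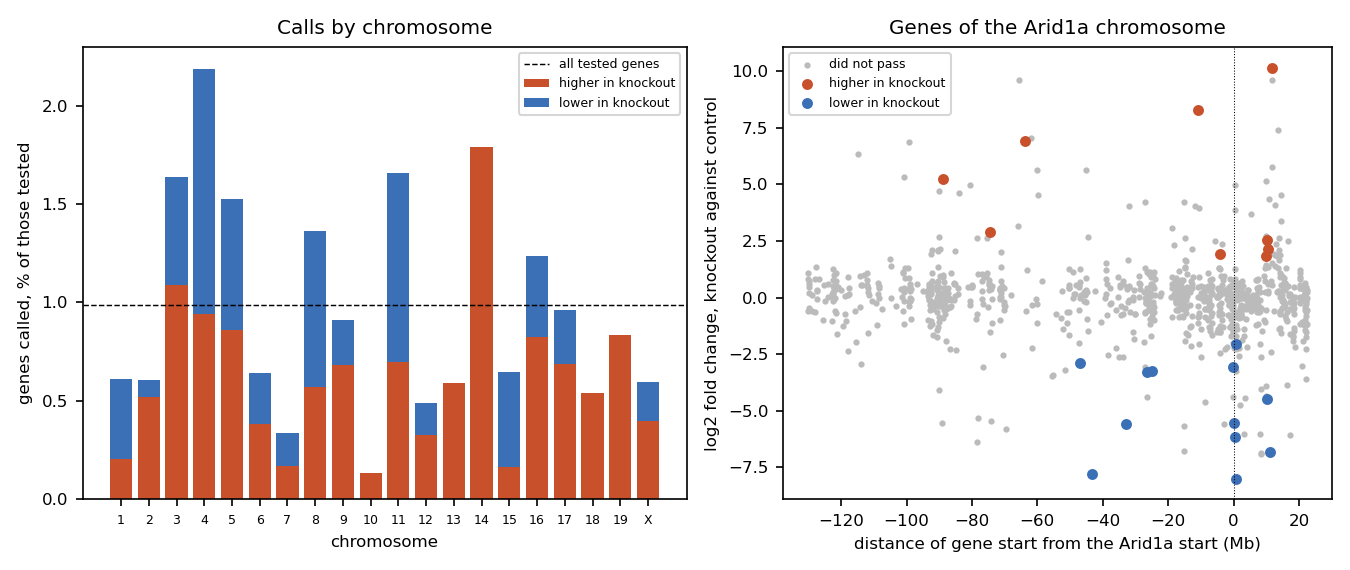
Left, the share of tested genes called on each chromosome, higher in red and lower in blue, with the share over all tested genes (0.989%) dashed. Right, log2 fold change against the distance of each gene start from the Arid1a start (Mb) on chromosome 4. Chromosome 4 has the tallest bar at 2.19%, and its calls include a group of falls at the Arid1a position and a mixed group near 10 Mb.

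Processed pseudogenes, copies of mRNAs inserted in the genome, took a large part of the rises. Of 697 tested, 23 were higher (3.30%) and 1 lower, against 65 higher (0.501%) and 58 lower of 12981 protein-coding genes. No antisense gene of 382 passed and 1 lincRNA of 832 did, Gm19757, which fell from 27.5 and 31.3 CPM to 0 reads and 2 reads (count ratio 617, 95% interval 171 to 5102, adjusted p = 0.000465). Nudc-ps1 on chromosome 8 (29286431 to 29286981, minus strand) was at 2.78 and 2.35 against 1483 and 737 CPM, 432-fold higher (8.76 ± 0.57, adjusted p = 0.000136). Gm11223, a processed pseudogene on chromosome 4, had 1 read in each control library and was at 7.31 and 4.54 CPM in knockout (count ratio 129.6, 95% interval 35.5 to 1077, adjusted p = 0.0172). The lower processed pseudogene was Gm12633, which was at 21.5 and 11.9 CPM in control and had 1 read and 2 reads in knockout (count ratio 229.6, 95% interval 78.2 to 1116, adjusted p = 0.0419). The processed transcript 4930481B07Rik was at 27.8 and 19 against 0.906 and 1.16 CPM (-4.49 ± 0.63, adjusted p = 0.00882).

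The parents of these pseudogenes had values of their own. Of 137 pairs in which a symbol names the parent, 8 pseudogenes were called higher, and 5 of their 7 parents had a negative fold change. Nudc, the parent of Nudc-ps1, encodes a dynein-associated chaperone and lies 0.21 Mb from Arid1a. It was at 2364 and 2214 against 1121 and 491 CPM (-1.51 ± 0.39, adjusted p = 0.126). Nudc and Nudc-ps1 summed to 2367 and 2216 CPM in control and 2604 and 1228 CPM in knockout. Rps3a1, a protein of the small ribosomal subunit, was the only call of 78 cytoplasmic ribosomal protein genes, where 0.989% of all tested genes passed. Rps3a1 was at 137 and 106 against 26.7 and 16.1 CPM (-2.51 ± 0.36, adjusted p = 0.00981). Its pseudogene Rps3a3 was at 0.603 and 0.712 against 80.7 and 52.2 CPM (6.65 ± 0.48, adjusted p = 0.000136), and Rps3a2 at 0.186 and 0.629 against 29.6 and 13.8 CPM (5.70 ± 0.86, adjusted p = 0.0125). The 3 summed to 138 and 107 CPM in control and 137 and 82.1 CPM in knockout. In both families the sums overlapped between groups.

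When the reads of each pseudogene were added to its named parent and all genes were tested again, an alternative chosen after seeing the data, Rps3a1 lost its call (-0.16 ± 0.33, adjusted p = 0.974). Nudc was at -0.25 ± 0.36 (adjusted p = 0.938), Rps2 at -0.57 ± 0.35 (adjusted p = 0.665), Rpl34 at -0.42 ± 0.43 (adjusted p = 0.876) and Morf4l1 at -0.18 ± 0.33 (adjusted p = 0.965). Pcna was at 0.63 ± 0.29 (adjusted p = 0.478) and Rpl15 at 0.45 ± 0.34 (adjusted p = 0.771). None of the 7 merged genes passed. The other 15 higher processed pseudogenes carry no parent in their symbol, and the sources used here do not say how reads that match several places were counted.

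**Figure D4:**
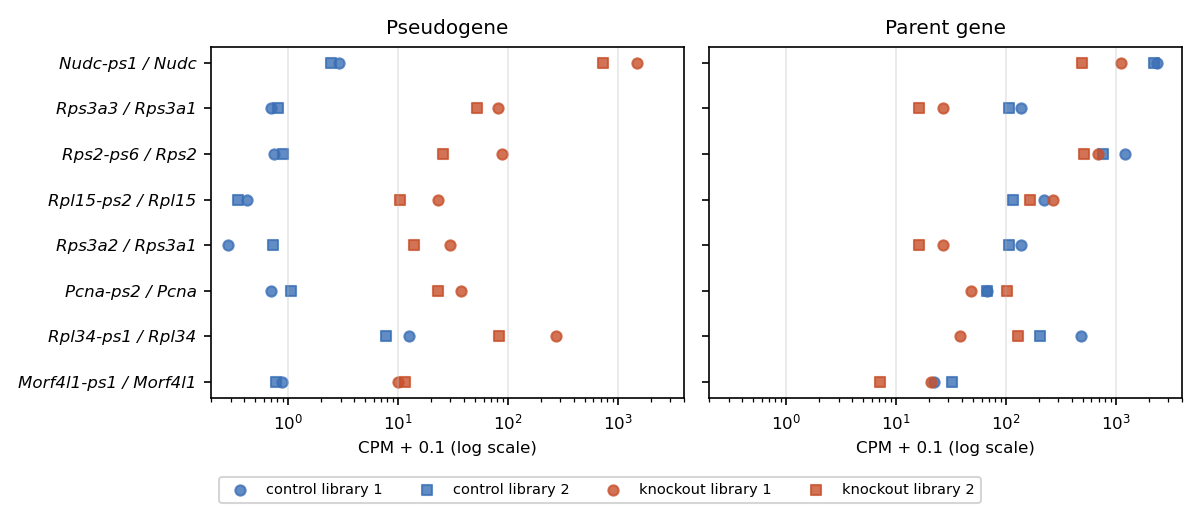
CPM plus 0.1 (log axis) of 8 pseudogenes called higher (left) and of their parent genes (right) in each GV library, control in blue and knockout in red, library 1 as circles and library 2 as squares. Every pseudogene is higher in both knockout libraries, whereas Nudc, Rps2, Rps3a1, Rpl34 and Morf4l1 are lower in both and Rpl15 and Pcna overlap between groups.

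The MII libraries are separate samples from the same 2 genotypes, tested in the same fit, so that the filter and the spread of each gene are shared. Of the 93 genes higher at GV, 84 had a positive fold change at MII, 53 passed as higher there and 1 passed as lower. Of the 61 genes lower at GV, 57 had a negative fold change at MII, 39 passed as lower and 0 as higher. Over all tested genes 60.1% had the same sign at both stages, and 5.14% passed at MII (1.7% as higher and 3.44% as lower). Gsto2 was at 0.192 and 0.264 CPM in control and 28.7 and 17.9 CPM in knockout MII, and Bfsp1 at 0.192 and 0 against 12.7 and 18.6 CPM. Epcam was at 1.08 and 2.81 CPM in control and 77.5 and 100.3 CPM in knockout MII. Dhrs3 was at 5.23 and 4.96 CPM in control and had 0 reads in knockout MII. C87414 was at 315 and 348 against 5.84 and 4.08 CPM. All 5 genes passed at MII.

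**Figure D5:**
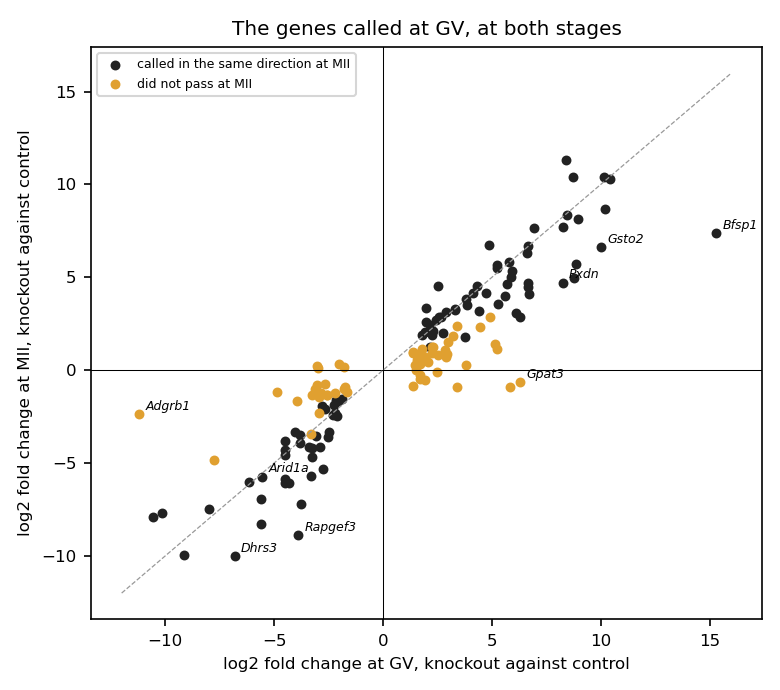
Log2 fold change of knockout against control at MII (y axis) against that at GV (x axis) for 152 of the 154 genes called at GV, in black where called in the same direction at MII and in yellow where not called. Most points lie at lower left and upper right near the dashed line of equal change.

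Whether the knockout effect itself differed between stages was tested as an interaction, which 13 of all tested genes passed (0.0835%). Gm8730 and Gm12463, singled out here for this, were among the 3 GV calls that did. The processed pseudogenes Gm8730 and Gm12463 were 35.6-fold and 37.3-fold higher at GV and did not pass at MII (1.42 ± 0.41 and 1.16 ± 0.41). Some genes passed at GV alone without a tested difference. Gpat3, at 0.346 and 1.19 against 0.655 and 0.34 CPM at MII, differed between stages by -6.90 (adjusted p = 0.0625). Adgrb1, at 14.5 and 8.09 against 1.82 and 2.53 CPM at MII, did not pass there (adjusted p = 0.0641), and its difference between stages did not pass either (adjusted p = 0.0685).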

How the data were processed

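Total RNA of oocytes was sequenced in 8 libraries, 2 in each of 4 groups. The deposited values are counts of reads per Ensembl gene, which the authors made by aligning to mm10 with Bowtie2 and counting with HTSeq, per the submitters' processing notes, which also name edgeR. The sources used here give no versions, annotation or strand setting, which leaves values of antisense and overlapping genes, pseudogenes and near-identical copies uncertain. Per the file headers, 2 columns carry the name of the second control MII library, and both were used as control MII without a number. The 5 HTSeq summary entries, 22% to 35.13% of reads, were left out. The number of value columns left unused was 0. Symbols and positions came from GENCODE M21 (54809 of 54838 identifiers placed).

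The model was fitted with edgeR 4.0.16 (R 4.3.3): filterByExpr, TMM, 1 term per group over all 8 libraries (4 residual and 6.3 prior degrees of freedom, common biological coefficient of variation 0.507), quasi-likelihood F-tests and Benjamini-Hochberg adjustment over 15572 genes. The SE is the log2 fold change divided by the square root of F. Folds against a group with 0 reads are bounds, computed with 3 reads per library in its place. Where 1 to 3 reads were held by a group, a count ratio with its exact 95% interval is given. Depth over the 8 libraries was 19587421 to 33289150 reads. The script was tested on simulated data.

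Named genes were Arid1a and Arid1b, the 12 protein-coding genes with the largest change in each direction (mean of 5 CPM or more in the higher group), the 6 most abundant calls in each direction, the called members of 31 functional lists and 5 marker lists, the called protein-coding genes within 5 Mb of Arid1a, and the 3 largest calls of other biotypes in each direction (with the same limit of 5 CPM). The 2 members with the smallest p stand beside the called members of some lists. The members and lists were chosen with earlier results of these data known. A few results are not reported here. Runs are 4 or more calls with gaps of at most 3 Mb. Alternatives were the GV libraries alone, a replicate block, other scalings, DESeq2 1.42.0, other filters, each GV library left out and pseudogenes merged with parents.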

Additional observations from a re-analysis of the deposited data

Results flagged for a closer look

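The knockout effect at MII minus that at GV passed the interaction test of edgeR's quasi-likelihood model (adjusted over all tested genes) for 3 genes given in the text: Rpl3, which the rule for named genes takes in, and Gm8730 and Gm12463, which were singled out for passing it. Rpl3, of the large ribosomal subunit, had a difference of -5.01 (adjusted p = 0.0142). It was at 107 and 101 CPM in control against 49.4 and 53.8 CPM in knockout GV, and at 16.3 and 12.1 against 0.238 and 0.189 CPM at MII. The value at GV did not pass (-1.01 ± 0.29, adjusted p = 0.181). The difference was -3.73 for Gm8730 and -4.07 for Gm12463 (adjusted p = 0.0458). Gm8730 lay just under the threshold, at an adjusted p that rounds to 0.05.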

How the results depend on the processing

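Arid1a passed under every alternative run, and its fold change ranged from -5.01 to -6.42. Counts of calls moved most. With the GV libraries alone 345 genes were higher and 357 lower, with DESeq2 304 and 222, without a filter 336 and 191, and with scaling by library totals alone 59 higher (62 lower, so 48.8% of calls were higher against 60.4%). Without 1 library the counts ranged from 13 to 43 higher and from 13 to 21 lower. On the chromosome of Arid1a the 9 higher and 12 lower calls became 28 and 53 with the GV libraries alone, 29 and 36 with DESeq2 and 28 and 35 without a filter, and they ranged from 1 to 3 and from 4 to 6 without 1 library. Of the 81 genes that the rule for named genes takes in, 1 (Rpl3) had an effect that differed between stages, and 7 with DESeq2, 11 without a filter and 0 in each fit without 1 library. Higher processed pseudogenes numbered 23, and 52 with the GV libraries alone, 42 with DESeq2, 42 without a filter and 6 to 16 without 1 library; merging them with their parents left 15 by construction. Scaling by library totals alone turned the sign of Arid1b (-0.02 ± 0.31), which passed in neither.

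The replicate numbers in the labels are not said to mark a shared batch or animal, and deviations of same-numbered GV libraries correlated at 0.119 over genes, with only 2 pairs. With the replicate number as a block in the GV libraries, 785 genes were higher and 737 lower (58 and 80 on the chromosome of Arid1a, and 62 higher processed pseudogenes). The cause of these changes was not tested. Of the 154 calls, 153 were shared with the fit of GV libraries alone, 154 with DESeq2 and 114 with library totals. No call at GV was smaller than 1.38 in log2 size.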

Other observations

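Some genes had the pattern of absence in 1 group and presence in the other (below 1 CPM in both libraries, 5 CPM or more in both) but did not pass. Among 13 such genes present in knockout GV alone were Draxin, Eva1c, Fam241a and Tceal8, and among 7 present in control GV alone were Slc7a8, Gstm1 and Actg2. These were singled out after their values were seen.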
